A study of Mus musculus with 2 samples.

Results

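Promoters of 734 protein-coding genes carried an ATAC-seq peak in the list labelled WT and none in the list labelled Bmi1-/-. The genes were chosen by the presence of peaks in both lists. A peak centre had to lie within 1000 bp of a transcription start site (TSS) of the gene in the list labelled WT, and no peak base within 3000 bp of any of its TSSs in the list labelled Bmi1-/-. They were 3.53% of the 20807 protein-coding genes of GENCODE vM21 on chromosomes 1 to 19, and 6.91% of the 10617 genes whose promoter had a peak labelled WT. The mirror rule, with the lists exchanged, was met by 2358 genes, which were 11.3% of all genes and 18.2% of the 12991 genes whose promoter had a peak labelled Bmi1-/-. A promoter peak in both lists was found for 9410 genes and no peak base within 3000 bp in either list for 4739 genes. The 734 genes had 816 peaks at their promoters, all narrower than 1000 bp, and these peaks are called the regions here. Since the absence of a peak in the list labelled Bmi1-/- selected the genes, it is a description and not a finding.

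The chromatin came from the organ of Corti of mice at postnatal day 2. WT mice and Bmi1-/- mice were littermates from Bmi1+/- parents carrying the Bmi1tm1Brn allele, which had been backcrossed to C57BL/6J. The organs of 10 mice (20 cochleae) of each genotype were pooled and made into 1 library, so there was no replicate and no difference between the genotypes was tested. The stria vascularis anlage, modiolus and tectorial membrane had been removed. All cells of the mutant animals lack the gene, and the pool mixes every cell type left in the dissected organ.

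The labels of the lists and the names inside them disagree. All 77826 peak names inside the list labelled WT carried a prefix that reads as Bmi1 knockout, and all 100668 names inside the list labelled Bmi1-/- carried a prefix that reads as WT. If the names inside are right, the 734 genes are those open in the mutant library alone. The Bmi1 promoter did not settle this, because a promoter peak does not show whether the exons are intact. The list labelled WT had 1 peak there (chr2:18677082-18677406, percentile 40.0 of its list by −log10 p). The list labelled Bmi1-/- had 4 peaks along the gene, the strongest at chr2:18677013-18677568 (percentile 91.9). The weakest of the 4, at chr2:18681150-18681366 (percentile 29.1), lay apart from the others. Every statement on a direction below therefore refers to the labels of the lists.

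ATAC-seq uses the Tn5 transposase, which inserts sequencing adapters into DNA that is not wrapped in nucleosomes, and a peak marks a place with more insertions than its surroundings. Promoters of genes that many cells use tend to lie in CpG islands and are open in nearly all tissues, whereas promoters of genes restricted to a cell type are often poor in CpG and open only in those cells. Bmi1 is a subunit of Polycomb repressive complex 1, which ubiquitinates histone H2A and compacts chromatin at silent developmental genes. In the organ of Corti, the sensory hair cells are surrounded by supporting cells, and Bmi1 is known in other tissues for keeping stem cells in division by holding cell cycle inhibitors silent.

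The strongest regions of the set included both CpG-poor and CpG-rich sequence. The sequences below (GRCm38) are shown on the strand of the gene, from 5′ to 3′, and come from within 100 bp of the summit, with bases of annotated exons left out. Capitals mark letters of the motifs searched, on either strand. The first and the last, at the olfactory receptor gene Olfr213 (chr6:116539327-116539526, plus strand) and the leukocyte receptor gene Cd300ld (chr11:114990565-114990764, minus strand), are poor in CpG, with 3 and 1 CG dinucleotides. The regions at Derl3 (chr10:75893180-75893379, plus strand), Vgf (chr5:137030084-137030259, plus strand) and Adgrb3 (chr1:25830024-25830223, minus strand) hold 15, 16 and 30 CG dinucleotides.
Olfr213: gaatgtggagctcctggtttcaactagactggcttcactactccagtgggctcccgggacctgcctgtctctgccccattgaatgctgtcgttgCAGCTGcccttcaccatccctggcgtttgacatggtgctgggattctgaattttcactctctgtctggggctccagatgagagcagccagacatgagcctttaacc
Derl3: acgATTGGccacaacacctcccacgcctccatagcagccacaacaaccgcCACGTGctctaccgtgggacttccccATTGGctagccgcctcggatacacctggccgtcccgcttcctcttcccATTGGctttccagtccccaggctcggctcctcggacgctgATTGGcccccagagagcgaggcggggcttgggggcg
Vgf: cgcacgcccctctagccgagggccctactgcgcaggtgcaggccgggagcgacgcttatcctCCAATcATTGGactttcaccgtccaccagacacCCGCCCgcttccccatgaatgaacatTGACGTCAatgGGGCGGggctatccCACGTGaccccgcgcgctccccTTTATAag
Adgrb3: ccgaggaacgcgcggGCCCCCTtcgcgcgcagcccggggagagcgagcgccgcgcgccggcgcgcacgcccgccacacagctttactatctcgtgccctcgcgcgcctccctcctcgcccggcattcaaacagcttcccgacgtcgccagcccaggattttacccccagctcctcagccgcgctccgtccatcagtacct
Cd300ld: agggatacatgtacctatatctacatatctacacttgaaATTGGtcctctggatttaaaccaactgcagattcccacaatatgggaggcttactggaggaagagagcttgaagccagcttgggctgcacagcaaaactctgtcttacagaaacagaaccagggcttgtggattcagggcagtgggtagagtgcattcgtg

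The Derl3 stretch held 4 copies of the CCAAT box, the letters bound by NF-Y, and 1 E-box (CACGTG). Derl3 encodes a protein that moves misfolded proteins out of the endoplasmic reticulum. The Vgf stretch held a CRE (TGACGTCA), the site of CREB, together with 2 GC boxes (GGGCGG), 2 CCAAT boxes, an E-box and a TATA box (TATAAA). Vgf encodes a neuropeptide precursor induced by nerve growth factor, and this region lay 115 bp upstream of a TSS inside the gene, 3788 bp from the 5′ end of its longest extent. The Olfr213 stretch held 1 E-box of the kind used by tissue bHLH factors (CAGCTG), the Cd300ld stretch 1 CCAAT box, and the Adgrb3 stretch 1 match to part of the CTCF motif (AGGGGGC). A match to such letters is a description and not a bound site.

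The regions were of ordinary strength for their list. These values come from the list that chose the genes and are given as a description. Their median −log10 p was 4.21, with a range of 2.11 to 15.4, and their median rank was percentile 48.4 of all peaks in the list labelled WT. Summits carried a median of 19 overlapping fragments (range 13 to 35) on a median local background of 6.78, and the fold enrichment had a median of 2.46. The 12354 peaks labelled WT at genes open in both lists, also limited to those narrower than 1000 bp, were stronger and wider. They had a median −log10 p of 4.83, percentile 65.9 and width of 316 bp against 259.5 bp. A q-value under 0.05 was reached by 51.6% of the regions (exact 95% binomial interval 48.1 to 55.1%, counting error only), by 67.1% of the peaks at genes open in both lists, and by 52.4% of all peaks of the list. A q-value under 1e-05 was reached by 3 regions, at Olfr213, B130006D01Rik and Derl3.

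**Figure D1:**
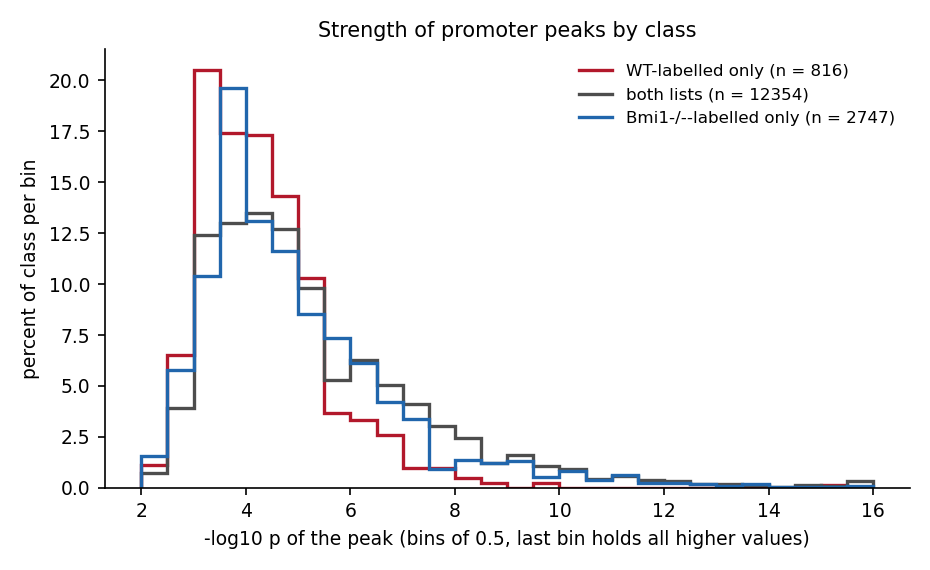
Distribution of peak strength, as −log10 p (horizontal axis, bins of 0.5), for the 816 regions, the 12354 peaks labelled WT at genes open in both lists and the 2747 peaks of the mirror set; the vertical axis gives the percent of each class per bin. Against the peaks at genes open in both lists, the regions are the larger share in each bin between 2 and 5.5 and the smaller share from 5.5 on, apart from the bin of the Olfr213 region. Each class holds only peaks narrower than 1000 bp.

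The share of promoters that lacked a peak labelled Bmi1-/- depended on strength. Of genes whose strongest promoter peak ranked at percentile 0 to 25 of the list labelled WT, 16.9% belonged to the set (14.8 to 19.2%). This share was 10.9% for percentiles 25 to 50, 9.18% for 50 to 75, 5.23% for 75 to 90 and 1.49% (1.11 to 1.95%) for 90 to 100. Away from promoters the absence of a peak in the other list was common. Of 51311 peaks labelled WT over 3 kb from every TSS, 56.4% had no peak labelled Bmi1-/- within 3000 bp of the centre, against 20.5% of 16465 peaks within 1 kb of a TSS. The list labelled Bmi1-/- had the higher commonest background, 8.04 fragments against 6.32, and its weakest summits had 15 fragments.

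The strongest region lay at Olfr213, an odorant receptor gene, at chr6:116539219-116539604, with 35 fragments at its summit, a fold enrichment of 4.92 and a −log10 p of 15.4, and the nearest peak labelled Bmi1-/- was 17410 bp from its TSS. The next was at the uncharacterised gene B130006D01Rik (chr11:95723563-95723828), with 27 fragments, a −log10 p of 9.70 and 66.5% of its bases in annotated repeats. Derl3 (chr10:75893117-75893430) followed with 31 fragments and 9.54, and Vgf (chr5:137030014-137030345) with 31 fragments and 8.96. These 4 genes share no family, and their nearest peaks labelled Bmi1-/- lay 4201 to 17410 bp away. Prss16, a serine protease of the thymic cortex, had 2 regions, at −log10 p 8.93 and 7.58, with the nearest peak labelled Bmi1-/- 22875 bp away. Both lay near an inner TSS, centred 3171 and 3616 bp from the gene's 5′ end. Ptcra, the pre-T-cell receptor alpha chain, was the other thymus gene among the strongest, with 7.27 at chr17:46763519-46764006.

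Among the other strongest members were genes used in many cells. Tomm5, a subunit of the import pore of the mitochondrial outer membrane, had a −log10 p of 8.41 and a distance of 19580 bp to the nearest peak labelled Bmi1-/-. Hps4, which acts in the making of lysosome-related organelles, had 8.48 at an inner TSS, with the region centred 25759 bp from the gene's 5′ end. Fbxo28 and Rnf216, parts of ubiquitin ligases, had 7.79 and 7.56, and Polr3b, the second largest subunit of RNA polymerase III, had 7.19. Adgrb3, an adhesion receptor that organises synapses, had 7.79 with the nearest peak labelled Bmi1-/- 18240 bp away. Kmo, an enzyme of tryptophan breakdown, had 7.72 at a region centred 4 bp from its TSS. The list of the 20 strongest was completed by 4930507D05Rik (8.41), Fam222a (8.19), Cd300ld (7.79), Gm14401 (7.79), Ms4a15 (7.79), Apol10b (7.42) and Lrrc2 (7.19), and the testis gene Spata3 had the same value as Lrrc2. All 20 ranked between percentile 94.7 and 99.6 of the list labelled WT. The Lrrc2 region with this value lay near an inner TSS, 9925 bp from the gene's 5′ end.

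The regions were spread more widely around the TSS than peaks shared by both lists. Centres within 100 bp of a TSS made up 21.6% of the regions and 37% of the 12354 peaks at genes open in both lists. Centres 500 to 1000 bp downstream made up 21.9% against 11.8%, and centres 500 to 1000 bp upstream 12.5% against 7.63%. A region within 1 kb of the gene's own 5′ end was present in 73.6% of the 734 genes (70.2 to 76.7%), so the remaining members were chosen by a TSS inside the gene. The share was 84.5% (83.8 to 85.2%) for the 9206 genes open in both lists that had a peak labelled WT narrower than 1000 bp. By the annotation, 40.1% of the summits lay in introns, 20.1% in coding exons, 18.6% outside genes, 14.8% in UTR exons and 6.37% in exons of non-coding transcripts. The share in coding exons was 14.1% (13.5 to 14.7%) at genes open in both lists, against an interval of 17.4 to 23% for the regions.

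**Figure D2:**
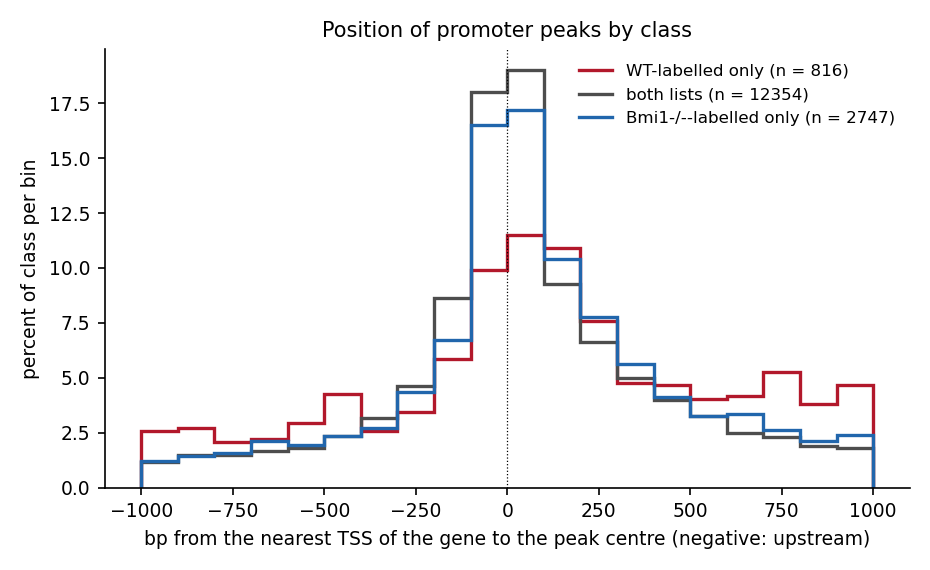
Position of peak centres relative to the nearest TSS of the gene (horizontal axis, bp, bins of 100 bp, negative values upstream) for the regions, for peaks labelled WT at genes open in both lists and for the mirror set; the vertical axis gives the percent of each class per bin. The regions have the lowest peak at the TSS, at 11.5% per bin, and the larger shares beyond 500 bp on both sides.

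In gene order, 81 of the 734 genes were next to another member, and 19 regions lay within 1 kb of TSSs of more than 1 member. Some of these lay at pairs of genes on opposite strands, for example Ftsj3 and Psmc5 (chr11:106255988-106256501), Ak8 and Spaca9 (chr2:28699190-28699563), the histone genes Hist1h2ad and Hist1h2bf (chr13:23574174-23574479), and Ly6g6d and Ly6g6e (chr17:35077743-35077970). These pairs were picked after the values were seen. Of the regions, 62 also lay within 1 kb of a TSS of a gene that does not encode a protein, and 21 within 1 kb of a coding gene outside the set. More than 1 region was found at 94 genes, with 4 at Pigq, an enzyme of glycosylphosphatidylinositol anchor synthesis. By chromosome, the share of genes in the set ran from 2.09% (chromosome 19) to 4.39% (chromosome 11).

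From the nearest TSS of a member, the nearest peak labelled Bmi1-/- lay a median of 6579.5 bp away, and 217 genes (29.6%) had no such peak within 10 kb. The 8 farthest were Gm2897 (496488 bp), Gm14401 (234175 bp), Olfr1269 (133677 bp), Gm8113, Olfr1408, Olfr666, Olfr709-ps1 and Gm10184 (108155 bp). Among them 4 are olfactory receptor genes and 4 are predicted genes. Near the limits of the rule, the members closest to exclusion were Isyna1 (3024 bp), Mllt6 (3032 bp) and Ciz1 (3040 bp), while Gh (2984 bp), Fbp2 (2961 bp) and Mal (2956 bp) were just left out. By distance of the peak centre from the TSS, Pmfbp1 (999 bp), 1700067P10Rik (998 bp) and Plin4 (997 bp) were just inside and Cntn5 (1004 bp), Ubl4b (1005 bp) and Lrrc30 (1006 bp) just outside. The widest regions were at 1700018B08Rik (827 bp), Ffar1 (795 bp) and S100a2 (774 bp), and the weakest members were Fam163b (−log10 p 2.11), Olfr463 (2.25) and Tmem102 (2.38).

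Sorted by gene symbol into families within 11 broader groups, 426 of the 734 members fell in no family. Receptors for odours and pheromones, immune genes, proteins of skin and secretions and germline genes made up a larger part of the set than of the genes open in both lists. The share of members among genes with a promoter peak labelled WT was 55.6% for chemosensory receptors, 30.7% for barrier and secreted proteins, 29.2% for immune genes and 20.8% for germline genes, against 6.91% for all genes. It was 12.3% for developmental regulators, 9.68% for adhesion and matrix genes, 7.83% for ion channels and neural receptors, 7.32% for metabolism and transport, 6.44% for zinc finger genes, 5.44% for genes in no family and 4.45% for cell growth and housekeeping genes. In the mirror set the same groups had 67.5% (chemosensory), 37.6% (barrier), 40.1% (immune), 29% (germline) and 17.1% (housekeeping), against 18.2% for all genes. Both sets draw on the same pair of libraries. No enrichment was tested.

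**Figure D3:**
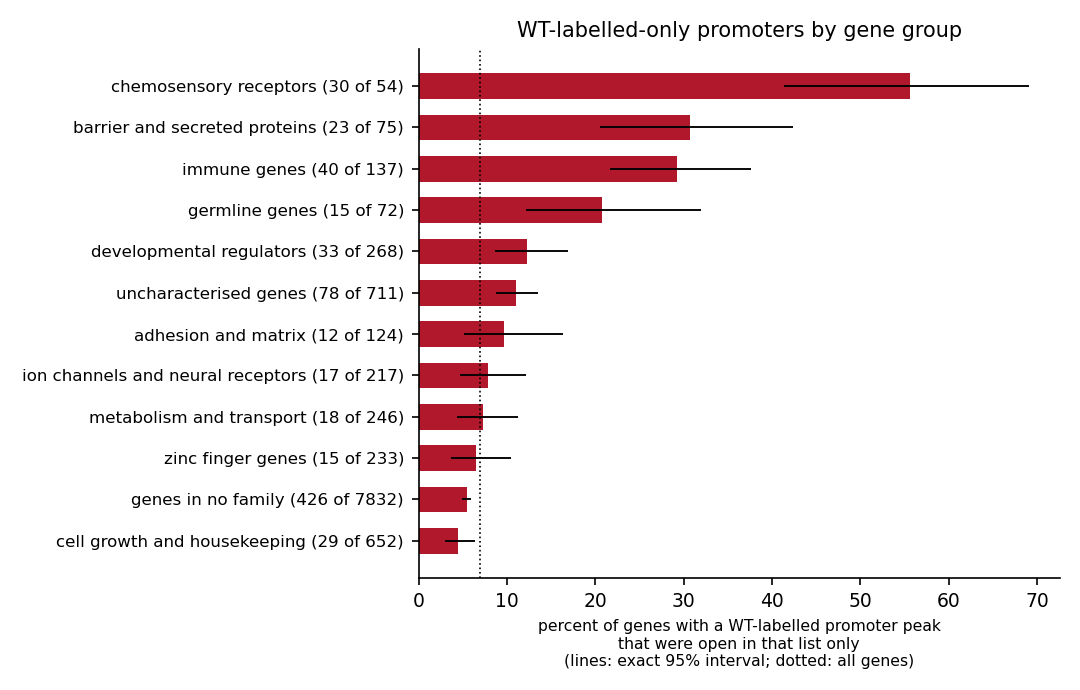
Share of genes with a promoter peak labelled WT that had no peak labelled Bmi1-/- within 3000 bp (horizontal axis, percent), by gene group, with member and gene counts beside each name; lines are exact 95% binomial intervals and the dotted line is the share over all genes. Chemosensory receptors reach 55.6% and the cell growth and housekeeping group 4.45%.

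The set held 27 olfactory receptor genes, which detect odorants in the nose, and 3 vomeronasal receptor genes, which detect pheromones. They were 1.99% (1.35 to 2.83%) of the 1508 chemosensory genes, a smaller share than the 3.53% of all genes. Of the 1508, 1303 had no peak base within 3000 bp in either list. Only 54 had a promoter peak labelled WT, so the 55.6% has an interval of 41.4 to 69.1%. After Olfr213 came Olfr1269 (−log10 p 6.61, 22 fragments), Olfr1408 (5.49) and Olfr666 (5.49). The median over the 27 olfactory genes was 3.96, with 13 to 35 fragments at the summit. The median distance to a peak labelled Bmi1-/-, which the rule required to exceed 3000 bp, was 19082 bp and exceeded 10 kb at 20 of 27 genes. They were on 10 chromosomes, with 10 of them on chromosome 7. By the strongest region of each gene, 12 of 27 were centred within 1 kb of the gene's 5′ end, against 521 of 734 over all members. Centres within 100 bp of a TSS were found for 3 of 27, against 160 of 734. None of the 30 had a CpG-rich start, which 0.0663% of the 1508 genes had. Members of these families share sequence, and reads of near-identical copies may have been placed at either copy.

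The 40 immune members were 6.75% of 593 genes, and 29.2% (21.7 to 37.6%) of the 137 with a promoter peak labelled WT. The strongest was Cd300ld, an activating receptor of myeloid cells, at −log10 p 7.79. Next came Nlrp5, a NOD-like receptor gene by symbol that is known for its maternal role in the early embryo (6.61, nearest peak labelled Bmi1-/- at 49873 bp), and Il10, the anti-inflammatory cytokine (6.04, region 626 bp upstream of the TSS). By family, defensins and Ly6 genes gave 8 of the 12 with a promoter peak labelled WT, among them the beta-defensins Defb5, Defb20 and Defb30. Immunoglobulin-like leukocyte receptors gave 7 of 15, including Lilrb4a, Slamf1, Slamf6, Fcer2a and Siglece. Major histocompatibility genes gave 5 of 13 (H2-D1, H2-M5, H2-M10.6, H2-M11 and H2-Q10), and chemokines with their receptors 4 of 12 (Ccl17, Cxcr1, Cxcr5 and Cx3cr1). Regions of the immune members rarely sat on the TSS, with 3 of 40 centred within 100 bp of it, against 160 of 734 over all members. Their median −log10 p was 4.18.

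The 23 members among barrier and secreted proteins were 30.7% (20.5 to 42.4%) of the 75 genes of that group with a promoter peak labelled WT. Keratins, the intermediate filaments of epithelia and hair, gave 6 of 12 such genes (Krt2, Krt27, Krt33b, Krt78, Krt81 and Krt88). The strongest were Prss16, then Lcn6, a lipocalin of the epididymis (−log10 p 6.61), and Krt88 (6.54, a region of 677 bp). Lipocalins, major urinary proteins and secretoglobins gave 4 of 6, serpins, cystatins and Spink genes 5 of 19, and serine proteases with kallikreins 5 of 24. None of the 23 had a CpG-rich start, which 2.56% of the 430 genes of the group had.

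The 33 members among developmental regulators were 6.53% of 505 genes, and 12.3% (8.63 to 16.9%) of the 268 with a promoter peak labelled WT. Homeobox genes, which set position and cell identity, gave 13 of 69. They included Hoxa5 (−log10 p 5.49, nearest peak labelled Bmi1-/- at 13101 bp), Hoxa13 (3.50), Hoxd9 (3.34), En1, Lhx2, Lhx3, Irx4 and Barhl1. The strongest of the group were Crx, a regulator of photoreceptors, Foxb1, a forkhead factor of the embryonic brain, and Klf14, a zinc finger factor of fat tissue, each at 6.04. The Crx region lay near an inner TSS, 8807 bp from the gene's 5′ end. Sox, forkhead, Pax and T-box genes gave 6 of 51, all 6 with a q-value under 0.05 (Foxb1, Foxf1, Sox14, Tbx5, Tbx10 and Tbx15). The family called Wnt, Fgf, Bmp and Notch pathway genes, formed by symbol, gave 6 of 71 (Acvrl1, Dkk4, Fgf6, Gdf1, Gdf3 and Ihh). Hes5, a Notch effector of supporting cells, had a weak region (3.22, q-value above 0.05). Of the 33 genes, 13 (39.4%) had a CpG-rich start, against 61.2% of the 505 genes. Beside these, Phc1, a subunit of Polycomb repressive complex 1, was a member with a region of −log10 p 6.61 and 22 fragments, 5351 bp from the nearest peak labelled Bmi1-/-. It was named after its value was seen.

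The 15 germline members were 7.43% of 202 genes and 20.8% (12.2 to 32%) of the 72 with a promoter peak labelled WT. Their median −log10 p was 4.49, against 4.32 over all members, and 6 of 15 had a q-value under 0.01, against 148 of 734 (20.2%). The strongest were Spata3 (7.19), Nlrp5 (6.61) and Spaca9 (6.56, in a region shared with Ak8). Piwil2, which silences transposons in spermatogonia, had 6.04, and Ddx4, a helicase of germ cells, had 4.45. The other members included the sperm gene Izumo1, needed for fusion with the egg, Tex15 and Tex101, and the oocyte factor Nobox.

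Ion channels and neural receptors gave 17 of 217 genes with a promoter peak labelled WT. After Adgrb3 the strongest were Chrnb1, the beta subunit of the acetylcholine receptor of muscle, with 3 regions of −log10 p 6.82, 5.69 and 4.29, and Chrnb2, a neuronal subunit (4.58). Sodium and calcium channels gave 0 of 25, with an exact upper bound of 13.7%. Metabolism and transport gave 18 of 246, including the lipid transporter gene Abca8a (5.49) and the sulfotransferase gene Sult1a1 (5.47). The Abca8a region lay near an inner TSS, 64978 bp from the gene's 5′ end. Adhesion and matrix gave 12 of 124, led by Itgbl1 (4.96), the cadherin Cdh13 (4.84) and the matrix protease Mmp7 (4.45). Zinc finger genes gave 15 of 233, led by Zfp458 (6.04), Zfp853 (5.91) and Zfp472 (5.49). The Zfp458 region lay near an inner TSS, 9475 bp from the gene's 5′ end.

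The cell growth and housekeeping group gave the smallest share among the groups, 29 of 652 (3 to 6.33%). It was formed by gene symbol and takes in whole families such as Trim, tubulin and myosin genes. Its members need not be genes used in all cells. Fbxo28 (7.79), Rnf216 (7.56) and the deubiquitinase gene Usp19 (6.53) led this group. The Usp19 region was centred 8880 bp from the gene's 5′ end, near an inner TSS. The group called uncharacterised genes, formed by symbol alone, gave 78 of 711 (11%). It held 29 predicted genes with a Gm number, 27 genes with a Rik symbol and 22 with a Tmem, Fam or Ccdc symbol. Such a symbol does not show that a gene is uncharacterised.

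Of 14 markers of blood and macrophages, 4 had a promoter peak labelled WT and all 4 were members. They were Csf1r, the receptor that macrophages need to survive (−log10 p 4.96), Cx3cr1 (3.96), Aif1 (3.58) and Spi1 (3.35), and Csf1r alone had a q-value under 0.05. Of the same 14 markers, 2 others had a promoter peak labelled Bmi1-/-, and these 2 met the mirror rule. Of the hair cell markers, 10 of 15 had a promoter peak labelled WT, and 3 of these were members. Those were Barhl1 (4.40), a homeobox gene needed by hair cells, Calb2 (3.87), the calcium buffer calretinin, and Lhx3 (3.78), a LIM homeobox gene. Supporting cell markers gave 0 members of 12 with such a peak (exact upper bound 26.5%). Mesenchyme gave Tbx15 (5.29), Col1a2 (3.96) and Col1a1 (2.99) of 8, endothelium Pecam1 (4.79) and Plvap (3.63) of 10, neurons Nefl (4.96) of 7 and glia Cnp (4.35) of 5. Of markers with a promoter peak labelled Bmi1-/-, the mirror rule was met by 1 of 10 for hair cells and 0 of 13 for supporting cells. It was met by 2 of 6 for mesenchyme, 0 of 8 for endothelium, 2 of 8 for neurons and 2 of 9 for glia. A promoter peak in both lists was found for 7 of the 15 hair cell markers and 12 of the 15 supporting cell markers. In pooled tissue, fewer cells of a type and less open chromatin per cell cannot be told apart. Of 53 hearing and deafness genes with a promoter peak labelled WT, 4 were members (7.55%, 2.09 to 18.2%), close to the 6.91% of all genes. They were Barhl1, Eya1 (3.50), Ednrb (3.06) and Marveld2 (3.06), and of these Barhl1 alone had a q-value under 0.05. Some of the regions named here lay near a TSS inside the gene, over 1 kb from its 5′ end. They included Pecam1 (86582 bp from that end), Aif1 (2301 bp), Lhx3 (1863 bp), Col1a1 (1706 bp), Cnp (1656 bp), Ednrb (1260 bp) and Barhl1 (1206 bp). Of the 4 blood and macrophage members, 2 had their region within 1 kb of the gene's 5′ end.

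Starts of member genes were poorer in CpG than starts of genes open in both lists, a feature the rule did not use. A start was called CpG-rich when the 500 bp to each side of the gene's 5′ end had a GC content of at least 50% and an observed over expected CpG ratio of at least 0.6. This held for 183 of 734 members, or 24.9% (21.8 to 28.2%). It held for 72.9% (72 to 73.8%) of genes open in both lists, 46.9% (44.8 to 48.9%) of the mirror set and 6.69% (5.99 to 7.44%) of genes open in neither list. The median CpG ratio was 0.349 in members, 0.743 in genes open in both lists, 0.59 in the mirror set and 0.16 in genes open in neither. The regions themselves had a median GC content of 56% and a CpG ratio of 0.308, against 63.2% and 0.697 for the peaks at genes open in both lists. Annotated repeats covered at least 50% of the bases in 24 regions (2.94%).

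**Figure D4:**
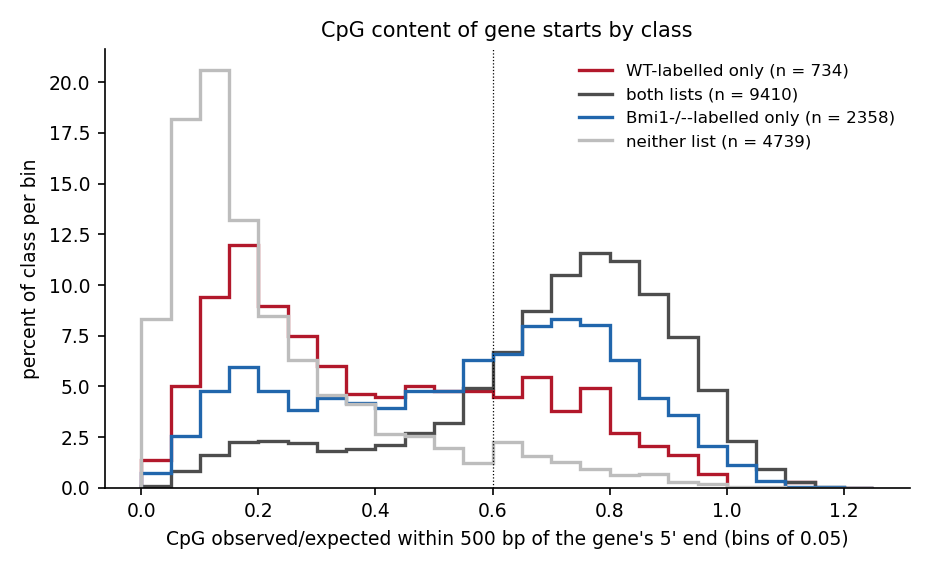
Observed over expected CpG ratio within 500 bp of the gene's 5′ end (horizontal axis, bins of 0.05) for genes open in the list labelled WT alone, in both lists, in the list labelled Bmi1-/- alone and in neither; the vertical axis gives the percent of each class per bin and the dotted line the limit of 0.6. Members lie between genes open in neither list and the mirror set, with medians of 0.349, 0.16 and 0.59.

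The lower CpG content was present at each strength of peak. Of genes with a CpG-poor start and a promoter peak labelled WT, 16% were members, against 2.55% of those with a CpG-rich start. With the strongest peak up to percentile 50 of the list these shares were 22% and 6.05%, at percentiles 50 to 90 they were 15.9% and 2.79%, and at 90 to 100 they were 5.52% (3.93 to 7.49%) and 0.5% (0.273 to 0.837%). Among genes with a CpG-poor start, the groups still differed in share. It was 56.6% (42.3 to 70.2%) for chemosensory receptors, 41.1% (31.1 to 51.6%) for immune genes, 37.8% for germline genes and 33.8% for barrier proteins. For the cell growth and housekeeping group it was 8.54% (4.75 to 13.9%). The CpG content depended on the cutoff of the lists. With both lists limited to peaks with −log10 q of at least 2, 730 genes met the rule, 148 of them members, and 49.6% had a CpG-rich start. With a limit of 5, 187 genes met it, 3 of them members (B130006D01Rik, Derl3 and Olfr213), and 80.2% had a CpG-rich start.

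**Figure D5:**
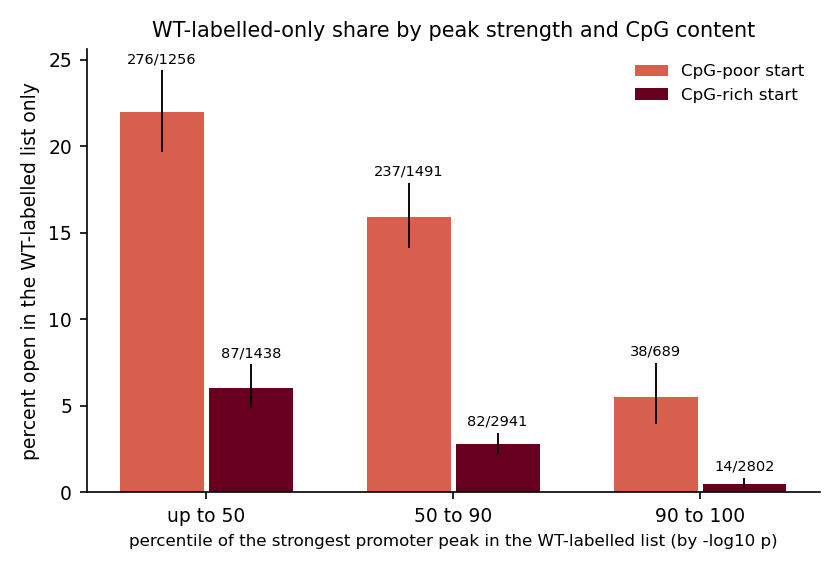
Share of genes with a promoter peak labelled WT that were open in that list alone (vertical axis, percent), by the percentile of the strongest promoter peak (horizontal axis) and by CpG content of the start; lines are exact 95% binomial intervals and the fractions give members over genes. CpG-poor starts have the higher share in each band, from 22% down to 5.52%.

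Within 100 bp of the summit the regions held fewer letters typical of CpG-rich promoters than peaks at genes open in both lists. The GC box (GGGCGG), bound by Sp and Klf factors, was in 19.5% of the regions (16.8 to 22.4%), in 42.4% of the peaks at genes open in both lists, in 30.6% of the mirror set and in 40.8% of windows of the same 201 bp at all gene starts. The CTCF letters (AGGGGGC) were in 5.27% against 9.91% (9.39 to 10.4%), with 9.18% of gene starts. The YY1 letters (AAGATGGC) were in 0.735% against 1.81%, with 2.81% of gene starts. The CCAAT box was in 21% against 20.3%, with 28.1% of gene starts. The RUNX letters (TGTGGT) were in 14.3% (12 to 16.9%) against 10.3% (9.79 to 10.9%) and 11.4% in the mirror set, with 10.1% of gene starts. The Sox letters (ACAATG) were in 6.86% (5.23 to 8.82%) against 4.41% (4.06 to 4.79%) and 5.02% in the mirror set, with 6.13% of gene starts. Within 50 bp of the summit the intervals overlapped for both, with 6.74% (5.12 to 8.68%) against 5.3% (4.91 to 5.71%) for RUNX and 2.94% (1.89 to 4.34%) against 2.08% (1.84 to 2.35%) for Sox. The PU.1 letters (GAGGAAGT) were in 1.59% against 1.19%, and the intervals overlapped (0.851 to 2.71% and 1.01 to 1.4%). Also higher in the regions than at genes open in both lists were AP-1 (4.41% against 3.12%), GATA (4.29% against 2.78%) and TATA (3.31% against 2.37%). So were TEAD (8.33% against 7.54%), CAGCTG (13% against 12%) and the homeobox core (1.1% against 0.688%). For each of these the intervals overlapped. The mirror set was higher than the regions for TEAD (8.88%) and CAGCTG (13.7%) and lower for the others. Gene starts were higher than the regions for GATA (5.23%), TATA (8.17%) and the homeobox core (2.34%) and lower for the others. Lower were ETS (4.04% against 5.99%), NRF1 (1.1% against 1.98%), CRE (0.49% against 1.21%) and CACGTG (4.53% against 5.46%), also with overlapping intervals. All letters, RUNX and Sox included, depend on base composition, in which the classes differed, and its part was not tested. Some of the motifs share letters, and each was counted on both strands.

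A −log10 q of at least 2 and no peak labelled Bmi1-/- within 10 kb were both met by 41 of the 734 genes. The strongest were Olfr213, Prss16, Tomm5, Adgrb3, Gm14401, Ptcra, Yipf3 and Gm21190. Among the 41 were 5 chemosensory receptors (Olfr213, Olfr666, Olfr1269, Olfr1408 and Vmn2r22), Hoxa5, Piwil2, Nlrp5, H2-M10.6, Ctso and Zfp472. By the symbol-based groups, 0 of 12 adhesion and matrix members and 0 of 29 members of the cell growth and housekeeping group were among them. Metabolism and transport, ion channels and neural receptors, developmental regulators and zinc finger genes had 1 each. With so few members per group, a count of 0 is not read as a difference from the 41 of 734 over all members. No member gene was kept under all 10 other settings of the rule at once, since the limit of 5 on −log10 q in both lists kept 3, and each of these 3 was lost under another setting.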

How the data were processed

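ATAC-seq peaks of 1 pooled library per genotype were analysed. The authors trimmed and quality-checked the reads (FastQC), aligned them (BWA-MEM) and ran MACS2 separately for each library to obtain peaks. The submitters' processing notes name mm10 (GRCm38). Versions and options of these tools are not given in the sources used here. Each peak has a deposited fold enrichment, a ratio of pileup over local background at its summit, and the deposited −log10 p and −log10 q are the p-value and q-value of that pileup. The deposited score was not used. Pileup and background were solved from fold and p under a Poisson model. Library totals were not used, and depth was read from the commonest background alone.

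Samples were grouped by the genotype in the labels. The genes, families, lists and motifs were chosen with earlier results of these data known. Genes were named if they were among the 20 with the highest −log10 p, among the 3 highest of a group or marker list, or among the 3 nearest to a limit of the rule. Others were named after their values were seen, and some genes are not reported here. Sequences came from the strongest regions off chromosome 18, with at most 200 and at least 60 bases free of exons. Shares have exact 95% binomial intervals, which cover counting error only. No test between genotypes was possible and no p-value is given. Alternatives changed the windows, the cutoff of the lists and the transcripts. Python 3.11.15, numpy 2.4.6, pandas 2.3.3, scipy 1.17.1 and matplotlib 3.10.9 were used, and the rule, the pileup solution and the motif counts were tested on simulated data.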

Additional observations from a re-analysis of the deposited data

How the results depend on the processing

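With 1 library per genotype no library could be left out. No paired analysis was possible because each genotype had 1 sample. When values were compared with those of another setting, 102 stayed within their interval or within 1.5 times the count, and 68 moved. The cause was not tested. The number of regions became 535 with centres within 0.5 kb, 1529 within 3 kb, 1255 with no peak labelled Bmi1-/- within 1 kb, 232 within 10 kb, 149 with −log10 q of at least 2 in the list labelled WT and 164 with at least 5 in both lists. The number of genes became 1266 (3 kb), 1122 (1 kb), 217 (10 kb), 148 (q of 2, list labelled WT) and 187 (q of 5). The member share of genes with a peak labelled WT was 5.4% (0.5 kb), 9.9% (3 kb), 10.6% (1 kb), 2.04% (10 kb), 2.75% (q of 2, list labelled WT), 13.5% (q of 2, both), 21.8% (q of 5), 9.49% (the list labelled Bmi1-/- shortened to the length of the other), 8.01% (basic transcripts) and 7.71% (protein-coding transcripts). In these settings, in the order of the share, the mirror rule gave 2010, 3129, 3437, 1000, 7191, 4251, 3015, 2070, 2778 and 2645 genes.

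The percent of CpG-rich starts was 20.6 (3 kb), 49.6 (q of 2, both), 80.2 (q of 5), 28.8 (shortened list), 29.7 (basic), 28.3 (protein-coding transcripts), 29.3 (window of 250 bp) and 9.4 (stricter CpG limits). The percent of members in a gene group moved most with the cutoff. Chemosensory receptors made up 2.55 (0.5 kb), 10.6 (10 kb), 0.822 (q of 2, both) and 0.535 (q of 5), and immune genes 3.54, 7.37, 1.51 and 1.07, with 3.38 at a q of 2 in the list labelled WT. Channels made up 3.74 (1 kb), 1.35 (q of 2, list labelled WT), 3.84 (q of 2, both) and 1.07 (q of 5). Developmental regulators made up 2.3 (10 kb), 2.88 (q of 2, both) and 1.6 (q of 5), and uncharacterised genes 8.29 (10 kb), 13.5 (q of 2, list labelled WT) and 5.35 (q of 5). Barrier proteins made up 1.51 (q of 2, both) and 0 (q of 5), adhesion genes 0 (q of 2, list labelled WT) and 0.535 (q of 5), and germline genes 4.05 and 0.535. The cell growth and housekeeping group made up 6.95 (q of 5). Within 50 bp of the summit the percent of regions with the letters was 10.4 (GC box), 11.6 (CCAAT), 1.35 (TATA), 2.33 (ETS), 0.368 (PU.1), 2.33 (AP-1), 1.72 (E-box), 6.62 (CAGCTG), 6.74 (RUNX), 2.08 (GATA), 3.92 (TEAD), 2.94 (Sox) and 3.06 (CTCF), in windows with fewer bases.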
